A study of Mus musculus with 14 samples.

Results

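The 10 genes described here are core parts of the NOTCH pathway in mouse epidermal stem cells (EpdSCs): the receptors *Notch1*, *Notch2* and *Notch3*, the ligands *Jag1*, *Jag2* and *Dll1*, the targets *Hes1* and *Hey1*, and the nuclear genes *Rbpj* and *Maml1*. They were taken by symbol from the 54332 gene rows of one RNA sequencing (RNA-seq) time course, and all 10 had a row. Values are TPM, transcript levels scaled for length so that each library sums to 1000000. Averaged over all libraries, 9 of them reached 1 TPM and were tested among the 13110 genes above that level. *Hey1* was below it and is given by its values alone.

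NOTCH proteins are receptors that read ligands on the surface of neighbouring cells. Binding of a Jagged or Delta ligand leads to cleavage of the receptor, and its intracellular domain enters the nucleus, where it joins the DNA-binding protein RBPJ and a Mastermind-like coactivator such as MAML1 to switch on genes of the HES and HEY repressor families. In epidermis, NOTCH signalling is known for the step by which basal cells leave the basement membrane and become spinous cells, and basal keratinocytes carry ligands such as JAG2 and DLL1.

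The study followed EpdSCs of adult back skin after re-activation of SOX9, a transcription factor of hair follicle stem cells that epidermal cells normally lack. All 10 libraries came from CD1 mice labelled male with the genotype K14rtTA; TRE-myc-Sox9, in which doxycycline (DOX) makes cells with an active *Krt14* promoter express a MYC-tagged SOX9, so D0 carried the transgenes too. D0 was taken at postnatal day 21 (P21), the day of DOX injection, and W1, W2 and W6 at P28, P35 and P63 after 1, 2 and 6 weeks of DOX, while W12 came from neonatal skin grafted onto female immunocompromised Nude hosts, healed for 21 days and then given DOX for 12 weeks. Each timepoint had 2 biological replicates of cells sorted as negative for CD31, CD45, CD117, CD140a and CD34 and high for CD49f and Ly6A. Age and time on DOX run together, and at W12 grafting is added, so these cannot be told apart, and no library of mice without the SOX9 transgene was used here.

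The transgene and the cell type were checked in every library. *MYC-SOX9* had 89.6 and 45.6 TPM at D0 and between 606 and 3414 TPM in the 8 later libraries, and the 6 basal epidermal markers, *Krt5* and *Krt14* among them, summed to 56939 and 59237 TPM at D0 and to between 34974 and 45768 TPM in the 8 later libraries. Of these markers 5 were lower than D0 at W6 and 4 at W12, with *Krt15* at log2 changes of −3.92 and −5.37, and of the genes for the 2 proteins required by the sort both were lower at W6 and 1 was higher at W12. Their part in the changes of the members was not tested. D0 replicate 2 went against its label: it had 4.61 TPM of *Xist* and 0.0278 TPM of the Y-linked *Ddx3y*, against 0.00103 and 32.1 TPM in D0 replicate 1. The W12 changes of the members are therefore also given without it, as are the named calls that were lost without it. The W12 libraries had 59.7 and 128 TPM summed over 6 endothelial markers, against at most 2.45 TPM in any earlier library. They had both 5.51 and 3.50 TPM of *Xist* and 11.0 and 12.9 TPM of *Ddx3y*. TPM carry no read depth, so the precision of a low value is unknown, and in bulk libraries fewer cells of a type and less RNA per cell cannot be told apart.

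The 3 receptors had a like course, which was not particular to them, and differences between them were not tested. *Notch1*, *Notch2* and *Notch3* were lowest in the grafted W12 cells, where all 3 had fallen from D0 with all libraries in the fit, and their highest mean levels were at W1 and W2, in changes from D0 that did not pass. Once trends with transcript length and GC content were removed, *Notch1* and *Notch2* still passed at W12 and *Notch3* did not. *Notch1* was the main receptor transcript in each library, with between 57.8% and 70.6% of the summed receptor TPM. The promoters of the 3 receptors are shown because their transcripts had a like course, and are the 250 bases before the RefSeq start of each gene on build GRCm38.p6. They lie at chr2:26503823-26504072 on the minus strand for *Notch1*, at chr3:98013288-98013537 on the plus strand for *Notch2* and at chr17:32166891-32167140 on the minus strand for *Notch3*.
Notch1: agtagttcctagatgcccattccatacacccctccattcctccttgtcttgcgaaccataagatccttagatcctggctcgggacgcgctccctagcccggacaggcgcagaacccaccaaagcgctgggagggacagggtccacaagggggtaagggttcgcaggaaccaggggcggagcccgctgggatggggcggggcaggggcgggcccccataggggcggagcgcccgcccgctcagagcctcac
Notch2: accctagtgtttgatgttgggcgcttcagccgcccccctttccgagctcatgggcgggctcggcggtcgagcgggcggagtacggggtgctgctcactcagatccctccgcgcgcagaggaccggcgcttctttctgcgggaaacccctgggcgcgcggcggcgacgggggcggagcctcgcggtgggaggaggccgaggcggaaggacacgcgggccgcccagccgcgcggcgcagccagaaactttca
Notch3: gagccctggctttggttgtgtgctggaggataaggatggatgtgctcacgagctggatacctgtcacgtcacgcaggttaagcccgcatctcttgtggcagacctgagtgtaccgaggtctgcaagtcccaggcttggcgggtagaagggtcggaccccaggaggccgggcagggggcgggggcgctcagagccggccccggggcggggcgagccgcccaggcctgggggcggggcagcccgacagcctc

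All 3 windows were rich in G and C, at 66.0%, 72.0% and 68.8%. They were searched on both strands for TGGGAA, the core bound by RBPJ, and for ACAAAG or ACAATG, the core bound by SOX proteins. No member window held both motifs, so their matches did not overlap. None of the receptor windows held either, while 21.6% of the 32851 promoter windows of the table held the RBPJ core and 25.2% held the SOX core. Of the members, 8 had 10 windows in the table, and *Hes1* and *Hey1* had none. In GENCODE annotation of GRCm38, a longer *Notch1* transcript starts upstream, so that the *Notch1* window lies inside the gene span, chr2:26457903-26516663, with 2 bases in an annotated exon.

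*Notch1* had 21.2 and 39.7 TPM at D0, 46.6 and 50.3 at W1, 39.6 and 40.7 at W2, 19.7 and 13.0 at W6, and 4.87 and 7.39 at W12. The W12 libraries were below all 8 others, and W1 was above both D0 libraries. At W12 the log2 change from D0 was −2.10 (standard error 0.31, adjusted *P* = 0.00109, limma), and it was −1.66 (adjusted *P* = 0.00579) without D0 replicate 2. The log2 change of 0.72 at W1 had an adjusted *P* of 0.186, and it also missed the threshold without D0 replicate 2 (1.15, adjusted *P* = 0.0529) or replicate 1 (0.28, adjusted *P* = 0.569). Going down the order of the means, W1 to W2, W2 to D0 and D0 to W6 were steps that did not pass, and only the step from W6 to W12 did (log2 change −1.28, adjusted *P* = 0.0221). That call was lost in 6 of 18 alternatives, among them the length and GC correction (−0.58, adjusted *P* = 0.0959).

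*Notch2* had 6.27 and 9.49 TPM at D0, 13.9 and 12.7 at W1, 11.6 and 12.8 at W2, 6.68 and 5.33 at W6, and 2.18 and 2.74 at W12. All 4 libraries of W1 and W2 were above both of D0, but the log2 changes of 0.71 at W1 (adjusted *P* = 0.0867) and 0.60 at W2 (adjusted *P* = 0.108) missed the threshold. Without D0 replicate 2 the W1 change was 0.97 and passed (adjusted *P* = 0.0428). The fall at W12 was −1.34 on the log2 scale (standard error 0.22, adjusted *P* = 0.00201), and −1.08 (adjusted *P* = 0.0122) without D0 replicate 2. It was −0.52 (adjusted *P* = 0.0470) after length and GC correction.

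*Notch3* had 4.23 and 6.99 TPM at D0, 7.39 and 8.86 at W1, 8.20 and 9.06 at W2, 5.67 and 2.50 at W6, and 1.37 and 1.62 at W12. As for *Notch2*, W1 and W2 lay above D0 in all 4 libraries, with log2 changes of 0.49 and 0.57 that did not pass (adjusted *P* = 0.381 and 0.264). A pattern of all 4 libraries above D0 was shared by 24.2% of the genes tested. The log2 change at W12 was −1.38 (standard error 0.32, adjusted *P* = 0.00959), and without D0 replicate 2 it was −1.07 and no longer passed (adjusted *P* = 0.0672), nor did the −0.29 left after length and GC correction (adjusted *P* = 0.306).

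Summed over the 3 receptors, D0 had 31.7 and 56.1 TPM, W1 67.8 and 71.9, W2 59.4 and 62.6, W6 32.0 and 20.9, and W12 8.42 and 11.7. The *Notch2* share of this sum was between 16.9% and 20.5% in the 6 libraries up to W2 and between 20.9% and 25.9% in the 4 later ones, while that of *Notch3* was between 10.9% and 17.7% throughout. The remaining receptor gene, *Notch4*, had between 0.0421 and 0.533 TPM up to W2, 1.11 and 2.16 at W6, and 2.45 and 2.10 at W12, and its mean was under the level tested. *Notch4* is best known from endothelium, and the 6 endothelial markers summed to 0.867 and 2.45 TPM at W6 and to 59.7 and 128 TPM at W12. Their part in the receptor values was not tested. The exons of *Notch1* share 414 bases with *Gm13568* on the opposite strand, which had 19.0 and 15.1 TPM at D0, 29.9 and 46.2 at W1, 22.9 and 23.2 at W2, 20.1 and 33.8 at W6, and 28.2 and 30.4 at W12. Its mean was highest at W1, where replicate 1 was within the range of W6 and W12, and unlike *Notch1* it was above D0 in both W12 libraries. Whether the quantification used strand is not given in the sources used here.

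**Figure D1:**
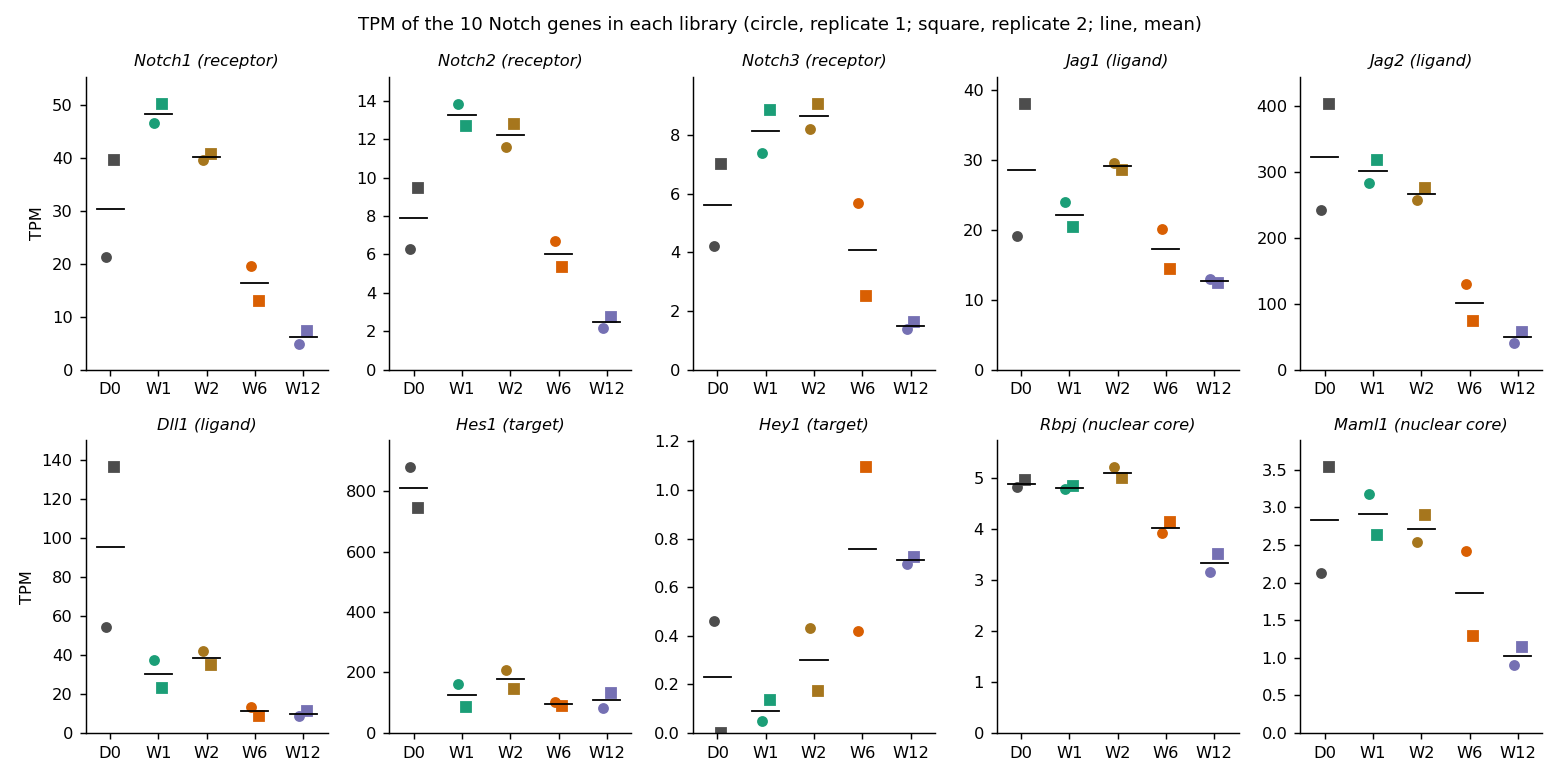
TPM (linear axis from 0) of each of the 10 genes at the 5 timepoints, with a circle for replicate 1, a square for replicate 2 and a line for their mean. The mean levels of the receptors are highest at W1 and W2 and lowest at W12, *Jag2* steps down between W2 and W6, and *Hes1* and *Dll1* are highest in both D0 libraries.

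Of the ligands, *Jag2* and *Dll1* differed from D0 past the test at W6 and W12, and *Jag1* at W12. Differences between the ligands in these changes were not tested. *Jag2* was the most abundant ligand transcript of the 3 in each library. It had 242 and 404 TPM at D0, 284 and 319 at W1, 258 and 276 at W2, 129 and 74.3 at W6, and 40.7 and 57.4 at W12. The D0 replicates spanned the whole range of W1 and W2, so these timepoints overlapped, whereas both W6 libraries were below all 6 earlier ones and both W12 libraries were lower still. The log2 change from D0 was −0.057 at W1 and −0.23 at W2, neither past the test, then −1.66 at W6 (standard error 0.31, adjusted *P* = 0.00496) and −2.67 at W12 (standard error 0.31, adjusted *P* = 0.000335). Without D0 replicate 2 the last of these was −2.30 (adjusted *P* = 0.00256), and the W6 call was lost in 1 of 19 alternatives, the fit to the 4 libraries compared (adjusted *P* = 0.0562). The step from W2 to W6 passed (−1.43, adjusted *P* = 0.0205) and that from W6 to W12 lay just outside the threshold (−1.01, adjusted *P* = 0.0507).

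*Dll1* had 54.5 and 136 TPM at D0, 37.6 and 22.8 at W1, 41.8 and 34.6 at W2, 13.3 and 8.72 at W6, and 8.64 and 11.2 at W12. Both D0 libraries were above all 8 others, a pattern found in 8.31% of the genes tested, but they differed widely between themselves. The change from D0 was −1.53 at W1 (standard error 0.41, adjusted *P* = 0.0525) and −1.16 at W2 (adjusted *P* = 0.0937), then −2.89 at W6 (adjusted *P* = 0.00152) and −3.01 at W12 (adjusted *P* = 0.000782), all on the log2 scale. The early calls turned on the D0 replicates: without replicate 1 the W1 change was −2.18 and passed (adjusted *P* = 0.00836), as did the W2 change of −1.81 (adjusted *P* = 0.0123), whereas without D0 replicate 2 they were −0.87 and −0.51 (adjusted *P* = 0.180 and 0.389). The late falls passed either way, at −2.24 for W6 and −2.36 for W12 without D0 replicate 2. W6 and W12 overlapped.

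The promoter of *Dll1* is shown because it was the one member window with more than 1 SOX core, on GRCm38.p6 at chr17:15376933-15377182 on the minus strand, before the upstream RefSeq start, with the cores in capitals.
Dll1: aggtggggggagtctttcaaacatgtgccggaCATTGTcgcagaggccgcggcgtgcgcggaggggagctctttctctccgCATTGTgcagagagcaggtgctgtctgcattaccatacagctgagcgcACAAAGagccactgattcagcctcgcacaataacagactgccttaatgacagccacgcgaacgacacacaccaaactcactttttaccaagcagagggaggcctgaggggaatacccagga
The 3 cores start 218, 169 and 121 bases before the start, the first 2 of them as ACAATG on the other strand. Among the other windows, *Jag1* held 1 SOX core, and the RBPJ core was found in both windows of *Rbpj* alone, so each motif was in 2 of the 10 member windows (20.0%), beside the shares of all windows given above. The *Rbpj* windows, chr5:53590096-53590345 and chr5:53590236-53590485, overlap and have a core in common, so this locus is counted more than once. A match is a run of letters and not a measured binding site. The *Dll1* window lies within an exon of the long non-coding RNA gene *A930024N18Rik*, which is transcribed from the opposite strand and shares 867 exon bases with *Dll1*.

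*Jag1* had 19.1 and 38.1 TPM at D0, 24.0 and 20.3 at W1, 29.6 and 28.5 at W2, 20.1 and 14.5 at W6, and 12.9 and 12.4 at W12. D0 overlapped W1, W2 and W6, and only W12 lay below all others. Its log2 change at W12 was −1.04 (standard error 0.29, adjusted *P* = 0.0205) with both D0 libraries and −0.56 (adjusted *P* = 0.10) without D0 replicate 2.

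The make-up of the ligand transcripts is given by their shares. *Dll1* took 17.3% and 23.6% of the summed ligand TPM at D0, and 10.9% and 6.30% at W1. The ratio of *Jag2* to *Jag1* was 12.7 and 10.6 at D0, 11.8 and 15.7 at W1, 8.70 and 9.66 at W2, 6.44 and 5.14 at W6, and 3.14 and 4.64 at W12. The replicate pairs of this ratio did not overlap between W2, W6 and W12, each lower than the one before. The sum of the 3 ligands over the sum of the 3 receptors was 9.97 and 10.3 at D0, between 4.67 and 5.54 from W1 to W6, and 7.39 and 6.89 at W12. These ratios are given as descriptions, with no test.

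**Figure D2:**
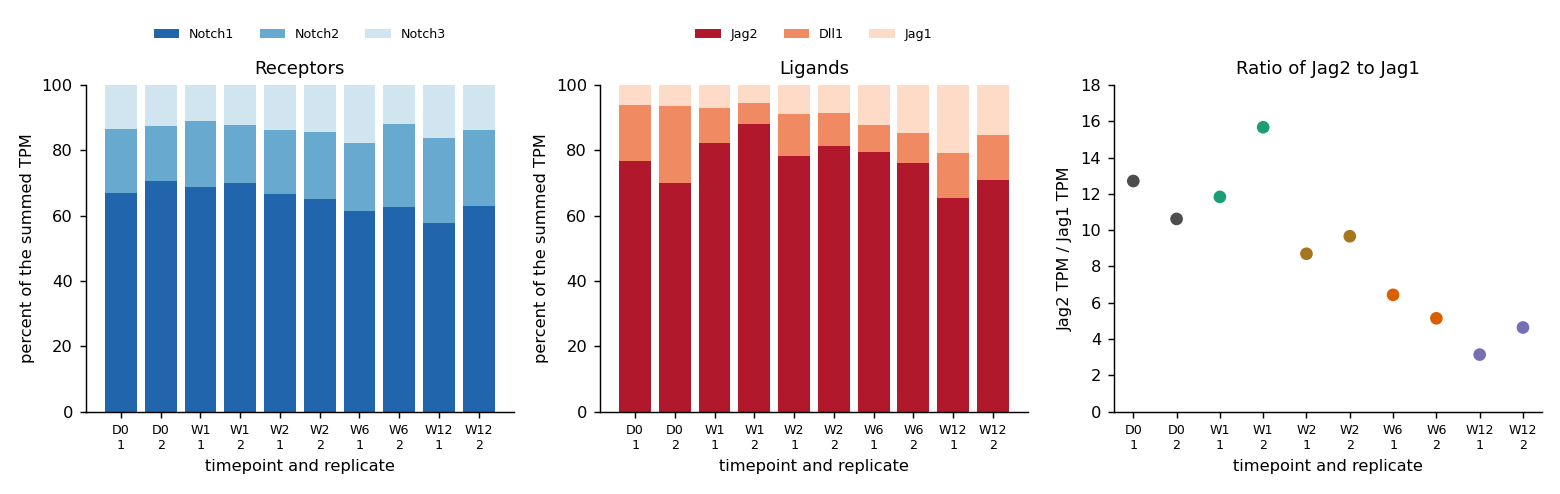
Share of each receptor in the summed receptor TPM and of each ligand in the summed ligand TPM (stacked bars, percent, 1 bar per library), and the ratio of *Jag2* to *Jag1* TPM (points, coloured by timepoint). *Notch1* holds 57.8% to 70.6% of the receptor sum, the *Dll1* share is highest at D0, and the ratio runs from 15.7 in W1 replicate 2 to 3.14 in W12 replicate 1.

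The target *Hes1* was the one member that passed the test at W1 with all 10 libraries and TPM as deposited. After length and GC correction *Dll1* passed there too (log2 change −1.69, adjusted *P* = 0.0271). HES1 is a repressor that NOTCH induces in many tissues, and its transcript had 880 and 744 TPM at D0, 163 and 86.0 at W1, 207 and 147 at W2, 101 and 89.9 at W6, and 83.1 and 133 at W12. Every library after D0 was below both D0 libraries, and among the later timepoints neighbouring pairs in the order of the means overlapped, with none of these steps past the test. The log2 change from D0 was −2.76 at W1 (standard error 0.33, adjusted *P* = 0.00154), −2.21 at W2 (adjusted *P* = 0.00312), −3.07 at W6 (adjusted *P* = 0.000399) and −2.93 at W12 (adjusted *P* = 0.000268). Without D0 replicate 2 these were −2.88, −2.33, −3.19 and −3.05, and all 4 passed.

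*Hes1* is also known as a gene that cells switch on within minutes of a stimulus. A list of 10 immediate-early and stress genes, with *Fos*, *Jun*, *Egr1* and *Atf3* in it, summed to 25446 and 40797 TPM at D0 and to between 4325 and 10896 TPM in the 8 later libraries. The list did not move as one: 8 of 10 were lower than D0 at W1, W6 and W12, and at W2 7 were lower and 1 higher. *Hspa1a* had 183 and 116 TPM at D0 and 376 and 359 at W2, and *Hspa1b* 399 and 275 at D0 and 919 and 613 at W2. In 4 of the 5 timepoints the replicate with more *Hes1* also had the larger sum of this list, D0 being the exception. How many of all genes share such an order was not counted, so nothing is drawn from it. At D0, *Fos* alone had 7385 and 8547 TPM, against 1054 to 3005 TPM later. The gene whose log2(TPM + 1) followed *Hes1* most closely over the 10 libraries was *Ccn1*, itself a gene of fast response (Pearson *r* = 0.977), followed by *Pank3* and *Tdrd3* (both 0.957). The part of this list in the *Hes1* and *Dll1* falls was not tested.

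*Hey1*, the other target, had 0.459 and 0 TPM at D0, 0.0492 and 0.134 at W1, 0.433 and 0.171 at W2, 0.421 and 1.09 at W6, and 0.695 and 0.727 at W12. Its replicates overlapped at most steps, and such levels are too low to compare. Of the other HES and HEY genes listed, *Hes6* was the one above the test level. It had at most 19.8 TPM at D0, 32.8 and 32.9 at W1, 22.5 and 27.8 at W2, 14.8 and 17.4 at W6, and 13.8 and 16.8 at W12. It was higher at W1 (log2 change 0.87, adjusted *P* = 0.0226), where 5.79% of all genes tested were, and did not pass at W2, W6 or W12. *Hes6* was named after its values were seen. *Hes5*, *Hes7*, *Hey2* and *Heyl* stayed at or below 0.303 TPM in all libraries.

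The nuclear partners were at low levels. *Rbpj*, the DNA-binding subunit, had 4.81 and 4.95 TPM at D0, 4.77 and 4.83 at W1, 5.21 and 4.99 at W2, 3.92 and 4.13 at W6, and 3.15 and 3.50 at W12. Its replicates lay close together, and W12 was below all others, yet the log2 change at W12 was −0.44 (standard error 0.17, 95% interval −0.84 to −0.049, adjusted *P* = 0.0674). Without D0 replicate 2 it was −0.43 (adjusted *P* = 0.165). *Maml1*, the coactivator, had 2.13 and 3.54 TPM at D0, 3.19 and 2.64 at W1, 2.54 and 2.89 at W2, 2.42 and 1.29 at W6, and 0.900 and 1.15 at W12. Here too both W12 libraries were lowest, and the log2 change of −0.90 (standard error 0.28) passed with all libraries (adjusted *P* = 0.0279) but not without D0 replicate 2 (−0.63, adjusted *P* = 0.164). The *Maml1* change was −1.35 with a pseudocount of 0.1 and −0.042 after length and GC correction.

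Counted over the 9 tested members, the passes grew with time and all were falls. *Hes1* was the 1 member lower at W1, where 4.1% of all genes tested were lower, and again at W2, where 6.64% were. Without D0 replicate 1, *Dll1* joined it at both timepoints, and without D0 replicate 2 the rise of *Notch2* at W1 did. At W6, *Jag2*, *Dll1* and *Hes1* were lower, 3 of 9 against 14.1% of all genes. Without D0 replicate 1 the W6 changes of *Notch1* and *Jag1* were −1.26 and −1.11, against −0.82 and −0.63 with it. At W12 all but *Rbpj* were lower, 8 of 9 against 25.1% of all genes. Without D0 replicate 2 the W12 changes of *Notch3*, *Jag1* and *Maml1* were −1.07, −0.56 and −0.63, against −1.38, −1.04 and −0.90 with it. The counts of members and of all genes at W12 were both smaller without D0 replicate 2 or W12 replicate 1. The median log2 change of the members was −0.02, 0.05, −0.63 and −1.38 at W1, W2, W6 and W12, beside 0.09, 0.06, 0.08 and −0.08 over all genes tested. Without D0 replicate 2 the member medians were 0.31, 0.25, −0.21 and −1.08, without D0 replicate 1 they were −0.22, −0.29, −1.11 and −1.68, and after length and GC correction they were −0.16, 0.058, −0.50 and −0.60. Both W12 libraries were below both D0 libraries for all 9, a pattern of 41.9% of the genes tested, and below all 8 other libraries for 7 of 9, all but *Dll1* and *Hes1*, a pattern of 22.6%. D0 replicate 2 was above D0 replicate 1 for all but *Hes1*, 8 of 9 members against 47% of the genes tested. The 4 comparisons share the D0 libraries.

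**Figure D3:**
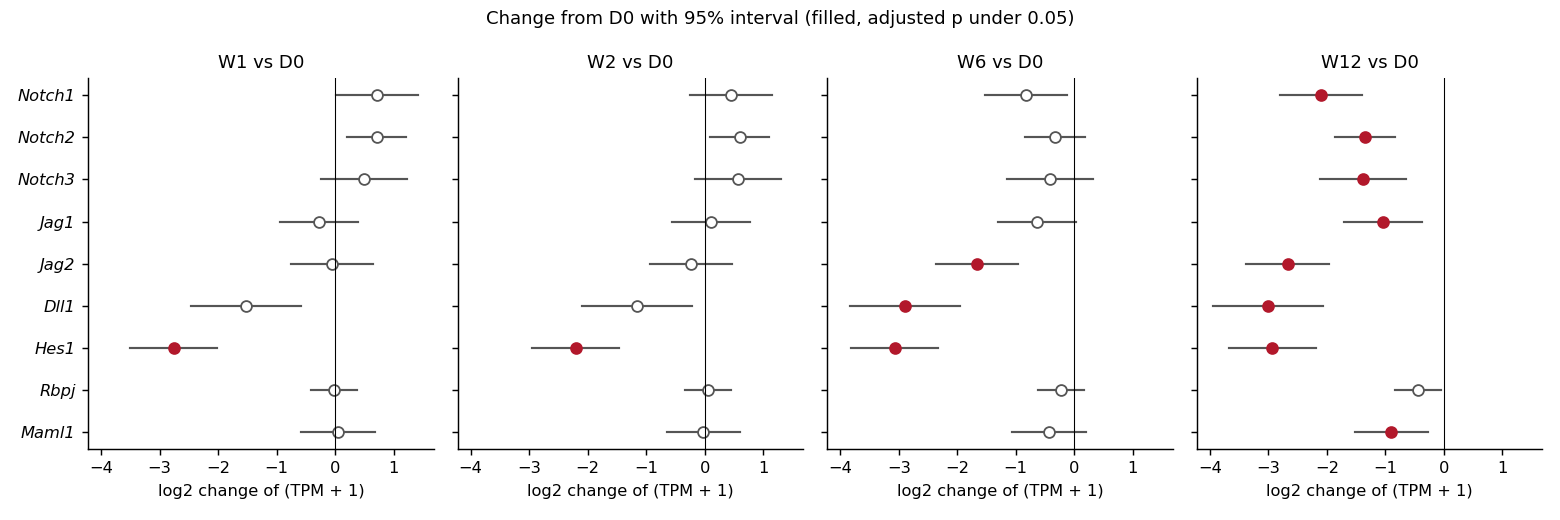
Log2 change of (TPM + 1) from D0 at W1, W2, W6 and W12 for the 9 tested members, each point with its 95% interval from limma and filled where the adjusted *P* was under 0.05. Filled points number 1, 1, 3 and 8, all to the left of 0, and *Hes1* is filled at each timepoint.

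Steps between later timepoints were tested next. Between W1 and W2 none of the 9 members passed, with none at an unadjusted *P* under 0.05 either, and 0.114% of all genes tested passed in either direction. Between W2 and W6, *Notch1* (log2 change −1.27, adjusted *P* = 0.0298), *Notch2* (−0.92, adjusted *P* = 0.0304), *Jag2* and *Dll1* (−1.73, adjusted *P* = 0.0289) fell, 4 of 9 against 8.31% of all genes tested. All 9 had both W6 libraries below both W2 libraries, a pattern of 31.8% of the genes tested. *Notch3* passed neither in this step nor in the next (adjusted *P* = 0.0685 and 0.0701). After the length and GC correction, the *Notch2* change from W2 to W6 was −0.46 and no longer passed (adjusted *P* = 0.103). This step depended on single libraries: no member passed without W2 replicate 1, W2 replicate 2 or W6 replicate 2, and 2 passed without any one library of W1 or W12. In W6 replicate 2 the 6 fibroblast markers summed to 52.2 TPM, of which *Dcn* had 51.2, against 1.68 in W6 replicate 1, at most 4.06 before and 13.7 and 28.1 at W12. *Pdgfra*, the gene of the CD140a that the sort removed, was at or below 0.188 TPM throughout. The part of these markers in the step was not tested. Between W6 and W12, *Notch1* and *Notch2* (−1.02, adjusted *P* = 0.0163) fell, 2 of 9 against 13.5% of all genes tested, while *Hes1* (0.14) and *Dll1* (−0.12) differed by less than their standard errors of 0.33 and 0.41. The count was 0 after length and GC correction and without W6 replicate 1 or W12 replicate 1, 1 without W12 replicate 2 and 4 without W6 replicate 2. By the F test over all 5 timepoints, 7 of 9 members varied, all but *Rbpj* (adjusted *P* = 0.126) and *Maml1* (adjusted *P* = 0.0556), beside 57.5% of all genes tested.

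Over all genes tested, falls at W12 were more common among long transcripts. Of the 2518 tested genes whose longest annotated transcript had at least 5000 bases, 39.6% were lower at W12, with a median log2 change of −0.42, against 21.7% and 0.01 for the 10581 shorter ones. The receptors are among the longest, at 9488 bases for *Notch1*, 10500 for *Notch2* and 8016 for *Notch3*, *Jag1*, *Jag2*, *Rbpj* and *Maml1* have between 5106 and 5612, and *Dll1* and *Hes1* have 3581 and 1468. When the trends with transcript length and GC content were removed from each library, 5 of the 8 members that fell at W12 still passed. After this correction 17.4% of all genes were lower at W12. *Hes1* (log2 change −3.18), *Dll1* (−2.46), *Jag2* (−1.73), *Notch1* (−1.09, adjusted *P* = 0.00415) and *Notch2* (−0.52, adjusted *P* = 0.0470) were lower, and *Notch3* (−0.29, adjusted *P* = 0.306), *Jag1* (−0.60, adjusted *P* = 0.110) and *Maml1* (−0.042, adjusted *P* = 0.890) did not pass. The W12 shifts of all tested members but *Hes1* were thus smaller after correction. Those of the receptors were about 1 log2 unit smaller, and that of *Jag2* went from −2.67 to −1.73. The W1 changes of *Notch1*, *Notch2* and *Notch3*, which had not passed, were also smaller after it, at 0.33, 0.35 and 0.095, and at W2 they were 0.22, 0.38 and 0.36. Whether the length trend came from the RNA or from the cells was not tested.

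**Figure D4:**
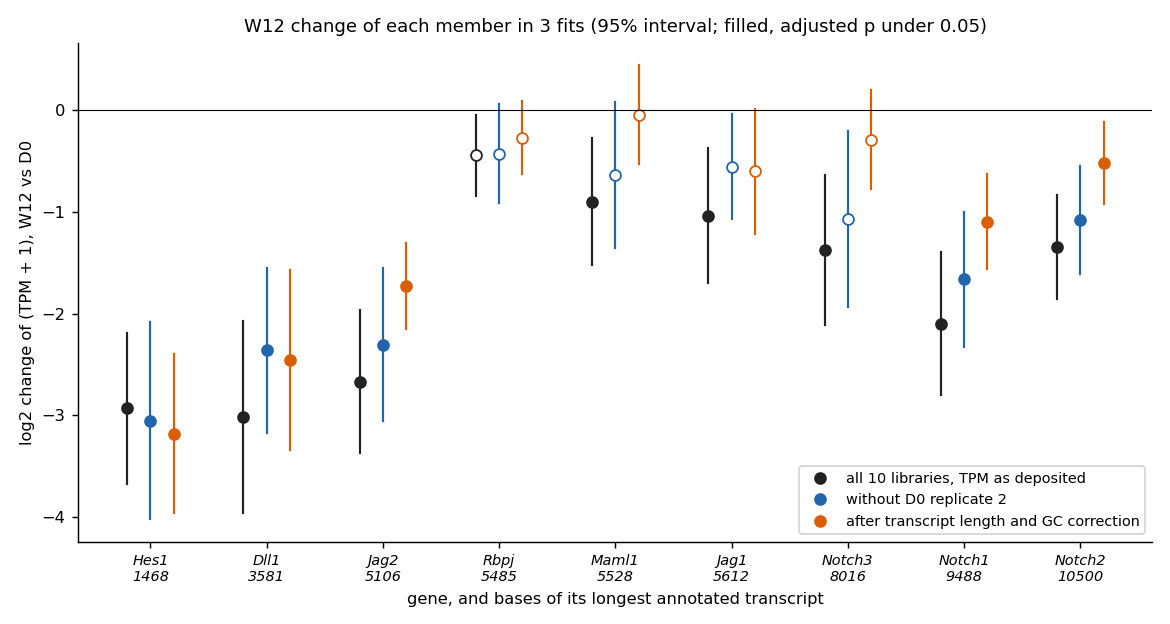
Log2 change of (TPM + 1) from D0 to W12 for the 9 tested members, ordered by the bases of the longest annotated transcript, with 95% intervals, from all 10 libraries (black), without D0 replicate 2 (blue) and after length and GC correction (orange), filled where the adjusted *P* was under 0.05. *Hes1*, *Dll1*, *Jag2*, *Notch1* and *Notch2* are filled in all 3, while *Notch3*, *Maml1* and *Jag1* are filled only in black.

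The other genes of the pathway were read from a list of 72 in 9 roles, of which 59 were above the test level. At W1, 4 were higher and 4 lower, where 5.79% and 4.1% of all genes tested were. At W2 the counts were 6 and 6 against 9.06% and 6.64%, at W6 4 and 12 against 18.3% and 14.1%, and at W12 2 and 28 against 17.9% and 25.1%. The median log2 change of the list was 0.21, 0.14, −0.18 and −0.61 in this order. The number of pathway genes that passed was smaller at each timepoint without D0 replicate 2, and at W12 also without W12 replicate 1. The number of all genes that passed was smaller in the same fits, so these drops cannot be read as a trait of the list. After length and GC correction the counts higher and lower were 9 and 13 at W6, where 17.7% and 16.6% of all genes were, and 7 and 19 at W12, where 20.4% and 17.4% were. The list medians were then 0.049, 0.12, −0.18 and −0.20. Markers of other cells moved at the same timepoints. The 8 spinous and granular markers summed to 11971 and 12572 TPM at W6 and 13628 and 11987 at W12, against 2085 to 7424 TPM before, and *Krtdap* made up most of this sum, with 10419 and 10171 TPM at W6 and 11060 and 9986 at W12. The markers did not move as one: 4 of 8 were higher and 1 lower than D0 at W6, and 3 were higher and 2 lower at W12, where *Ivl* rose (2.82) and *Lor* (−2.60) and *Dsg1a* (−1.44) fell. The 6 haematopoietic markers summed to 5.26 and 4.53 TPM at W6 and 147 and 163 at W12, against 20.2 to 36 at D0, W1 and W2. Nearly all of the W12 sum was *Cd74* (102 and 124 TPM) and *H2-Aa* (45.1 and 37.5 TPM), while *Ptprc*, which encodes the CD45 that the sort removed, had 0.0184 and 0.327 TPM and *Cd3e* and *Cd207* at most 0.0370. *Cd34* had at most 0.383 TPM up to W2, 2.66 and 5.04 at W6 and 16.5 and 32.0 at W12, although the sort took CD34-negative cells, and it was higher than D0 at both (log2 change 1.96 and 4.31). The 6 melanocyte markers summed to between 1.29 and 6.31 TPM up to W2, 4.70 and 11.96 TPM at W6, and 13.1 and 11.5 TPM at W12, and *Dct* and *Tyrp1*, 2 of the 3 tested, were higher there. The part of these markers in the W6 and W12 counts was not tested.

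Among the pathway genes chosen for naming, 11 of 17 calls at W12 and 5 of 10 at W2 still passed without D0 replicate 2. The W12 counts by role stand beside the 25.1% of all genes tested that were lower there. Of 4 receptor glycosyltransferases 3 fell, with *Lfng*, the fringe enzyme that tunes which ligands a receptor answers, at −1.93 (adjusted *P* = 0.00464) and *Pofut1* at −0.97. The *Pofut1* call was lost in 3 of 17 alternatives. Its change was −0.84 without D0 replicate 2 and −0.37 (adjusted *P* = 0.243) after length and GC correction. *Mib2*, a ubiquitin ligase for ligand endocytosis, had 22.0 and 29.9 TPM at D0 and 5.31 and 5.60 at W12 (log2 change −2.05, adjusted *P* = 0.000109), and it and *Neurl1b* (−1.24) were among 3 of 4 genes of ligand endocytosis that fell. The *Neurl1b* call was lost in 6 of 17 alternatives, among them leaving out either D0 library (−1.44 without replicate 2) and the length and GC correction (−0.35, adjusted *P* = 0.518). *Dlk2*, a relative of the ligands, fell by 2.04. Among 8 receptor-cleaving proteases and their subunits, *Ncstn*, a subunit of γ-secretase, was among 3 that fell (−1.06), while *Psenen*, another subunit, rose by 0.55 on the log2 scale, which was lost in 3 of 17 alternatives (0.37 without D0 replicate 2, adjusted *P* = 0.0734). Subunits of this one enzyme therefore moved in both directions.

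In the nucleus, 3 of 7 coactivators fell at W12, beside 25.1% of all genes, *Maml3* (−1.34) and *Ep300* (−1.25) most. After length and GC correction *Maml3* and *Ep300* were at −0.63 and −0.60 and still passed. Of 15 corepressors 6 fell, with *Tle4* at −2.12, and 1 rose, *Tle1*. *Tle1*, a Groucho-family partner of HES proteins, had 15.1 and 10.6 TPM at D0 and 52.5 to 69.7 TPM in the 4 libraries of W1 and W2, with a log2 change of 2.07 at W2 (adjusted *P* = 0.00215) and 1.28 at W12 (adjusted *P* = 0.00723), the latter lost in 2 of 17 alternatives (1.05 without D0 replicate 2, adjusted *P* = 0.0505). *Tle4* was lower at W2 as well (−1.19), a call lost in 2 of 18 alternatives. Among inhibitors and genes of receptor turnover 3 of 10 fell at W12, *Dtx4* (−1.84) and *Dtx2* (−1.62) among them, and at W2 *Numbl*, a relative of the NOTCH inhibitor NUMB, rose by 1.86 and *Fbxw7*, which marks the receptor's intracellular domain for breakdown, fell by 0.99. That fall of *Fbxw7* had an adjusted *P* of 0.0471 and was lost in 13 of 18 alternatives (−0.97 without D0 replicate 2, adjusted *P* = 0.131). The *Dtx4* call at W12 was lost in 5 of 17 (−1.35 without D0 replicate 2, adjusted *P* = 0.164).

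Of 9 other genes reported elsewhere as NOTCH targets, 6 fell at W12, beside 25.1% of all genes. *Gata3*, a regulator of epidermal identity, had 241 and 346 TPM at D0, 116 to 173 TPM at W1 and W2, and 27.2 and 27.8 TPM at W12 (log2 change −3.35, adjusted *P* = 8.24e-05). *Myc* had 697 and 1161 TPM at D0 and 82.8 and 131 TPM at W12 (−3.10, adjusted *P* = 0.00118), and like *Hes1* it is a gene of fast response. At W2, *Cdkn1a*, a cell-cycle inhibitor, was lower (−1.82) and *Tcf7l1*, a transcription factor of hair follicle stem cells, was higher (2.13, adjusted *P* = 0.0283). *Tcf7l1* had 0.392 and 2.75 TPM at D0 and 9.87 and 8.16 at W2, and its call was lost in 9 of 18 alternatives. These genes answer to many other signals too, so their changes are given as values and not as a readout of NOTCH.

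**Figure D5:**
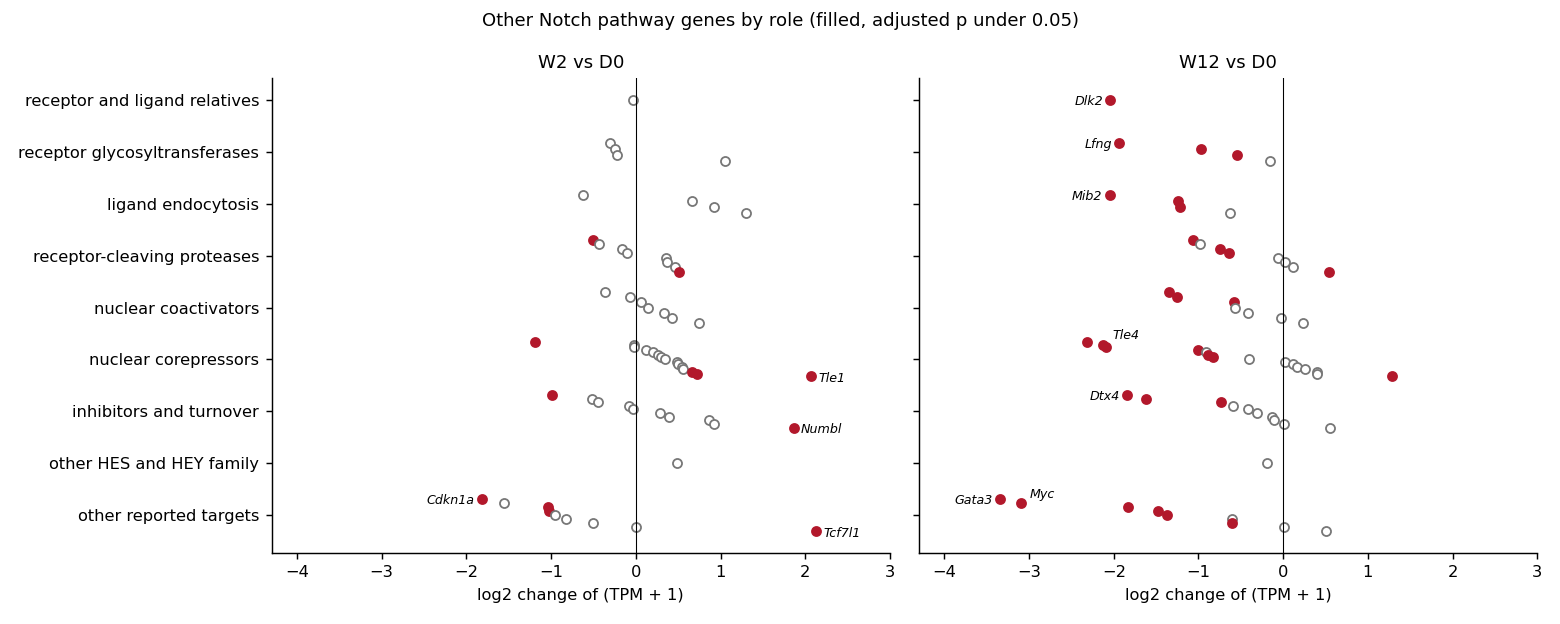
Log2 change of (TPM + 1) from D0 at W2 and at W12 for 59 other pathway genes in 9 roles, 1 point per gene, filled where the adjusted *P* from limma was under 0.05, with some of the larger changes named. At W2 the filled points lie on both sides of 0 (6 and 6), and at W12 28 of 30 lie below 0.

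Some pathway genes known from endothelium had their highest values at W12. *Dll4*, a ligand best known from vessels, had at most 0.0452 TPM in the 8 earlier libraries and 0.718 and 1.79 TPM at W12, and *Mfng* had at most 0.207 TPM and then 1.45 and 4.87. Both had a mean under the level tested and were named after their values were seen. In the same W12 libraries *Pecam1* had 26.1 and 59.8 TPM and *Emcn* 22.9 and 45.5, against at most 1.14 and 0.163 TPM before, although the sort removed CD31-positive cells. All 6 endothelial markers had at least 1.16 TPM at W12, and their part in the W12 values of the members was not tested.

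The genes most alike to *Notch1* and *Jag2* over the 10 libraries were tracked by the correlation of log2(TPM + 1), as a description. For *Notch1* they were *Rptor* (*r* = 0.996), *Myo1c* (0.995) and *Dvl3* (0.994), and for *Jag2* they were *Pacs2*, *Ppip5k1* and *Rnf208* (each 0.993). Between members, *Notch1* went with *Notch2* at 0.988, *Notch3* at 0.975, *Jag2* at 0.960, *Maml1* at 0.943 and *Rbpj* at 0.932. With *Jag1*, *Dll1* and *Hes1* it went at 0.845, 0.715 and 0.306. The libraries share their timepoints and the length trend, so these values carry no *P*. By level among the 13110 genes tested, *Hes1* ranked 171st at D0 and 1442nd at W12, *Jag2* 478th and 2874th, and *Notch1* 4447th and 8927th.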

How the data were processed

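RNA-seq libraries were made with a SMARTer low-input kit from total RNA of sorted cells. Per the labels and methods, reads were trimmed with Skewer and transcripts quantified by the authors with Salmon (version 1.4.0) on a GENCODE GRCm38 index that included the transgene, and the deposited gene-level TPM came from Tximport (version 1.12.3). Each library summed to 1000000 TPM, so depth is unknown. A second deposited table, of the authors' own comparison of SOX9-positive and SOX9-negative embryonic cells, was not used, and its 4 libraries are not analysed here.

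The 13110 genes (of 54332) whose TPM averaged 1 or more were tested on log2(TPM + 1) with limma (version 3.58.1, R version 4.3.3, trend in the prior variance), with the 5 timepoints in 1 fit and Benjamini-Hochberg adjustment over all genes, at an adjusted *P* under 0.05. The added 1 shrinks the changes of genes with low TPM. The study's methods used DESeq2 on counts, which TPM do not allow. The fit was tested on simulated data. With 2 replicates per timepoint, *P* values set each change against the spread between replicates, pooled over all libraries in the fit. The members and lists were chosen with earlier results of these data known. All 10 members were named, of each role the 2 pathway genes with the largest passing rise and fall at W2 and W12, and for *Hes1*, *Jag2* and *Notch1* the 3 most correlated genes. Some genes that this rule would name are not reported here. Promoters are from RefSeq (GRCm38.p6), searched over 250 bases, and gene spans and lengths from GENCODE annotation of GRCm38. Alternatives were pseudocount 0.1, no filter, median-ratio and quantile scaling, fits to 4 libraries, leaving out each library, and a replicate block, and, chosen after seeing the data, length and GC correction, crossed replicate numbers and leaving out W12.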

Additional observations from a re-analysis of the deposited data

How the results depend on the processing

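Depth is unknown for TPM, and 2 libraries per timepoint limit every test. *Notch1*, *Notch2*, *Jag2*, *Dll1* and *Hes1* were lower at W12 than at D0 and passed in 17 of 17 alternatives, *Notch3* in 14, *Maml1* in 11 and *Jag1* in 10, while *Rbpj* passed in 3. *Hes1* passed at W1, W2 and W6 and *Dll1* at W6 under all alternatives run. With all genes above 0 TPM in the test, *Jag1* and *Maml1* were lost at W12.

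Median-ratio scaling moved the median log2 change of all genes at W1, W6 and from W6 to W12 to −0.01, −0.05 and −0.02, from 0.09, 0.08 and −0.16. It moved the share of higher genes among those differing from 58.6% to 44.8% at W1, from 57.7% to 45.6% at W2, from 56.5% to 45.2% at W6, and from 33.0% to 55.7% between W6 and W12. Quantile normalization moved the last share to 45.8%, and length and GC correction moved it to 62.0%, the W1 share to 45.9% and the W12 share from 41.7% to 54.0%.

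Of all genes tested, 1296, 2058, 4251 and 5642 differed from D0 in the order of the timepoints, 15 between W1 and W2, 2137 between W2 and W6 and 2642 between W6 and W12. With all genes above 0 TPM these were 606 at W1, 1011 at W2 and 940 between W2 and W6. With only the 4 libraries compared they were 411, 1086 and 1094 at W1, W2 and W6, 80 between W1 and W2, 966 between W2 and W6, and 887 between W6 and W12. Between W1 and W2 there were 7 with pseudocount 0.1, 44 with length and GC correction and 6 without W12, and between W2 and W6 there were 1271 without W12.

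Among the members, length and GC correction gave 2 at W1 (*Hes1* and *Dll1*) and 5 at W12, all lower, where 6.06% and 17.4% of all genes were lower. It gave 0 between W6 and W12. Between W2 and W6, all genes above 0 TPM gave 0 and fits to 4 libraries and fits without W12 gave 2 each. Between W6 and W12, all genes above 0 TPM and median-ratio scaling gave 1 each and the 4 libraries gave 0. Of the pathway list, 8 genes at W1 became 1 with all genes above 0 TPM, 2 with 4 libraries and 5 each with median-ratio scaling, quantile normalization and without W12. At W2, 12 became 4, 3 with 4 libraries and 7 without W12, and at W6, 16 became 10 and 5.

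With each library left out in turn, the genes differing ranged from 377 to 1773 at W1, 652 to 2647 at W2, 2356 to 5047 at W6, 3362 to 6291 at W12, 0 to 83 between W1 and W2, 207 to 3179 between W2 and W6, and 761 to 3223 between W6 and W12. The members ranged from 1 to 2 at W1 and at W2, 3 to 5 at W6, 5 to 9 at W12, 0 to 6 between W2 and W6 and 0 to 4 between W6 and W12, and by the F test from 6 to 8. The pathway genes ranged from 1 to 10, 3 to 18, 11 to 23 and 17 to 35. At W12 the members numbered 5 without W12 replicate 1, losing *Notch3*, *Jag1* and *Maml1* as without D0 replicate 2, and 6 without W12 replicate 2.

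The timepoints share replicate numbers but nothing says that the numbers pair animals, and deviations of same-numbered samples correlated between −0.13 and 0.18. With the replicate block, members differing from D0 stayed 1, 1, 3 and 8 and the F test gave 6, while the genes differing were 6 between W1 and W2 and 1396 between W2 and W6. With the numbers crossed, chosen after seeing the data as were the length correction and the fit without W12, the members were 2 at W1, 3 at W6 and 4 between W6 and W12.

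Only changes that had not passed changed sign. After length and GC correction these were *Notch2* (0.032) and *Maml1* (0.030) from W1 to W2, *Dll1* (0.32) and *Maml1* (0.11) from W6 to W12, and *Maml1* (−0.16) at W1. With median-ratio and quantile scaling they were *Dll1* from W6 to W12 (0.017 and 0.063), *Rbpj* at W2 (−0.023 and −0.042) and *Maml1* at W1 (−0.043 and −0.052). With 1 library left out, log2 changes that took both signs ranged from −0.89 to 0.045 for *Notch3* at W6 and from −0.035 to 0.20 between W1 and W2, from −0.76 to 0.20 for *Jag1* at W1 and −0.38 to 0.58 at W2, from −0.42 to 0.31 for *Jag2* at W1 and −0.60 to 0.14 at W2, from −0.40 to 0.16 for *Dll1* and −0.20 to 0.48 for *Hes1* between W6 and W12, and for *Maml1* from −0.22 to 0.32 at W1, −0.29 to 0.25 at W2 and −0.17 to 0.031 between W1 and W2. The cause was not tested.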
